A study of Mus musculus with 12 samples.

Results

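The 9 genes described here code for the inhibitors and partners of MyoD-type transcription factors: Id1, Id2, Id3 and Id4, the E proteins Tcf3, Tcf4 and Tcf12, and the antagonists Twist1 and Hes1. They were chosen by symbol, as all probe sets that the array's gene table lists under these 9 names, out of 8251 genes with a symbol of their own on the array. Each gene had 1 probe set (Id1 100050_at, Id2 93013_at, Id3 92614_at, Id4 96144_at, Tcf3 98040_at, Tcf4 160483_at, Tcf12 98981_s_at, Twist1 98028_at and Hes1 160887_at), and all 9 passed the filter on low signal, with a deposited signal above 15 on all 12 arrays. RNA came from 2C5/7 cells, a line derived from mouse embryonic fibroblasts that carries no functional MyoD or Myf5 gene, so the hrGFP controls lack both genes too. A retrovirus had brought MyoD, Myf5 or myogenin into the cells together with the green fluorescent protein hrGFP on 1 viral transcript, or hrGFP alone, and each of these 4 groups had 3 arrays. Fluorescent cells were sorted without cloning to an estimated purity of 75 to 85%, and they grew in medium with 10% fetal calf serum. Nothing in the labels gives the time between infection and harvest or calls the replicates separate cultures, and the p-values therefore speak of the spread between these samples, which may be technical.

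MyoD, Myf5 and myogenin are basic helix-loop-helix (bHLH) factors that bind DNA as dimers with E proteins, at short sites called E-boxes. Id proteins have the helix-loop-helix but no basic region, so they take up E proteins in dimers that cannot bind DNA, and they are known to hold back muscle differentiation. Twist1 also binds E proteins and blocks myogenic factors, and Hes1 is a repressor made in response to Notch signalling. The comparisons with hrGFP ask what each factor changed in cells without their own MyoD and Myf5.

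Levels are quantile-normalized log2(signal + 6.33), where 6.33 is the 25th percentile of all signals, a scale on which dim probe sets show less than their true change. Group levels carry ± the standard deviation (SD, n = 3 arrays), and differences carry ± the standard error (SE) of a limma fit to all 12 arrays. Adjusted p-values are from limma with the Benjamini-Hochberg method over 8485 probe sets, and a change was called at an adjusted p under 0.05. With 3 arrays against 3 an exact permutation test of a single gene cannot go below 0.10, and 3 arrays a group set the precision. The 3' to 5' signal ratio of the beta-actin control was 25.7 on MyoD 5 and 37.6 on hrGFP 5, against 0.968 to 1.11 on the other 10 arrays, and that of Gapdh was 32.4 and 33.0 against 0.786 to 1.03. Member differences are therefore also given without these 2 arrays. All 14 fibroblast markers (collagens, Vim, Pdgfra and others) passed the filter, with a summed signal of 8024 to 20969 with hrGFP, 8381 to 17185 with MyoD, 9894 to 15412 with Myf5 and 12742 to 16724 with myogenin. Of 8 endothelial markers, a cell type known for high Id1 and Id3, only Kdr passed, while Pecam1 and Cdh5 did not. The lists of macrophage, epithelial, neural and adipocyte markers had 4 of 10, 2 of 7, 4 of 7 and 3 of 4 measured genes above the filter. Against hrGFP limma called 0 of the 28 tested marker genes, with 3, 2 and 3 at an unadjusted p under 0.05 for MyoD, Myf5 and myogenin. Of all probe sets, 3.55%, 3.01% and 11.5% had such a p.

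Id2 was the only member called in any of the 6 comparisons between groups, and it was higher with MyoD. The gene codes for an inhibitor that binds E proteins and, among its other known partners, the retinoblastoma protein. Its deposited signal was 480, 428 and 871 on MyoD arrays 3, 4 and 5, and 141, 106 and 385 on hrGFP arrays 3, 4 and 5. Every MyoD array was thus above every hrGFP array already before normalization, and the MyoD 5 and hrGFP 5 arrays were the highest of their groups. With MyoD the level was 9.14 ± 0.11, against 7.56 ± 0.54 in the controls. Id2 thus rose by 1.59 ± 0.29 (adjusted p = 0.0391), which is 3.00-fold with a 95% interval of 1.93 to 4.67. In bulk RNA, more cells with Id2 transcripts and more transcripts per cell cannot be told apart. Of the 9 members, 1 was called with MyoD, against 0.412% of all probe sets, and 1 had an unadjusted p under 0.05, against 3.55%.

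Id2 had signals of 399, 287 and 549 on Myf5 arrays 3, 4 and 5, and of 281, 608 and 528 on myogenin arrays 2, 3 and 6. The levels were 8.64 ± 0.15 with Myf5 and 8.84 ± 0.50 with myogenin, and the lowest of these 6 normalized levels, 8.28 on myogenin 2, was above the highest with hrGFP, 8.09. Before normalization Myf5 4 and myogenin 2 lay below hrGFP 5. Id2 differed from hrGFP by 1.08 ± 0.29 with Myf5 (adjusted p = 0.973) and by 1.28 ± 0.29 with myogenin (adjusted p = 0.132), so neither passed. The 95% intervals of these differences were 0.44 to 1.72 and 0.64 to 1.92. Without MyoD 5 and hrGFP 5, Id2 rose with myogenin too, by 1.50 ± 0.26 (adjusted p = 0.0280), and differed by 1.30 ± 0.26 with Myf5 (adjusted p = 0.252). For myogenin this was the 1 of 21 alternatives in which Id2 passed. Without hrGFP 5 alone its difference was 1.52 ± 0.28 without passing (adjusted p = 0.0859), and MyoD 5 belongs to neither group of that comparison. The myogenin arrays are also an array batch of their own, so batch and factor cannot be told apart there. Every normalized level of the 3 factor groups was above all 3 hrGFP arrays for Id2, which was so for 35 of 8485 probe sets, or 0.412%. The 3 comparisons share their hrGFP arrays, so these values are not independent of each other.

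**Figure D1:**
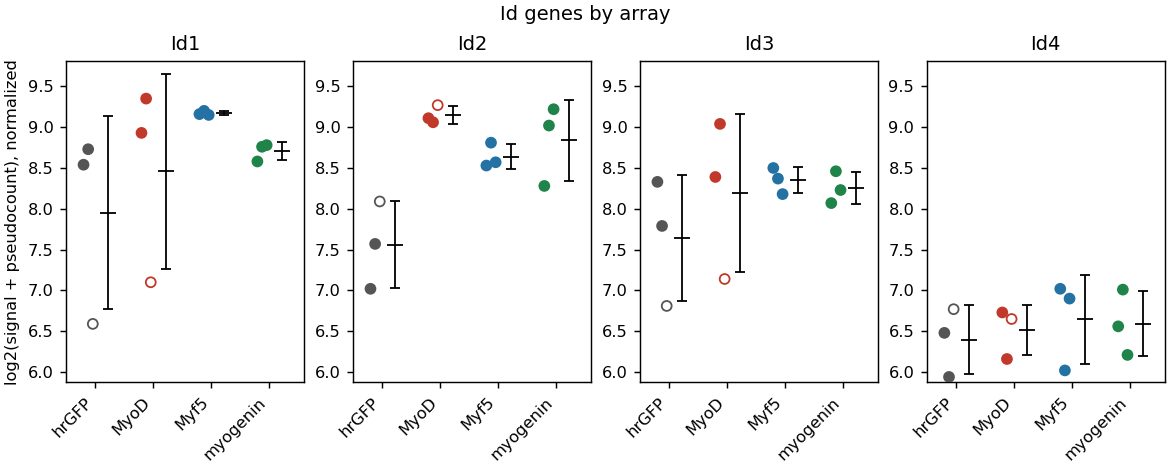
Normalized log2 level of Id1, Id2, Id3 and Id4 on each of the 12 arrays by group (one point an array, open for MyoD 5 and hrGFP 5), with the mean and SD of 3 arrays as a bar beside the points. For Id2 all 9 arrays with a factor lie above the 3 with hrGFP, while the open points of Id1 and Id3 lie below every other array.

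The rise of Id2 with MyoD had the same direction under all 24 alternative settings, between 1.32 and 1.83, but passed in only 11 of them. Pairing the arrays by replicate number gave differences of 2.09, 1.48 and 1.18 for numbers 3, 4 and 5, and the rise within array batch 1, where arrays 3 and 4 of both groups share a chip lot and hybridization day, was 1.74 ± 0.26 (adjusted p = 0.0365). Without MyoD 5 and hrGFP 5 the rise was 1.74 ± 0.28 (adjusted p = 0.0184). The call was lost without MyoD 3 (adjusted p = 0.158), MyoD 4 (0.157), MyoD 5 (0.129), hrGFP 3 (0.166) or hrGFP 4 (0.144). It was also lost without Myf5 3 (0.0798), Myf5 4 (0.0659), Myf5 5 (0.0793) or myogenin 3 (0.0731), arrays of neither group compared, and there the difference itself stayed between 1.58 and 1.59. Without normalization the rise was 1.61 ± 0.52 (adjusted p = 0.962), with median centring 1.62 ± 0.41 (0.259), and with only the 6 arrays compared 1.63 ± 0.34 (0.297). The plot of Id2 under each setting shows that the difference moved little, while its adjusted p crossed the threshold.

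**Figure D2:**
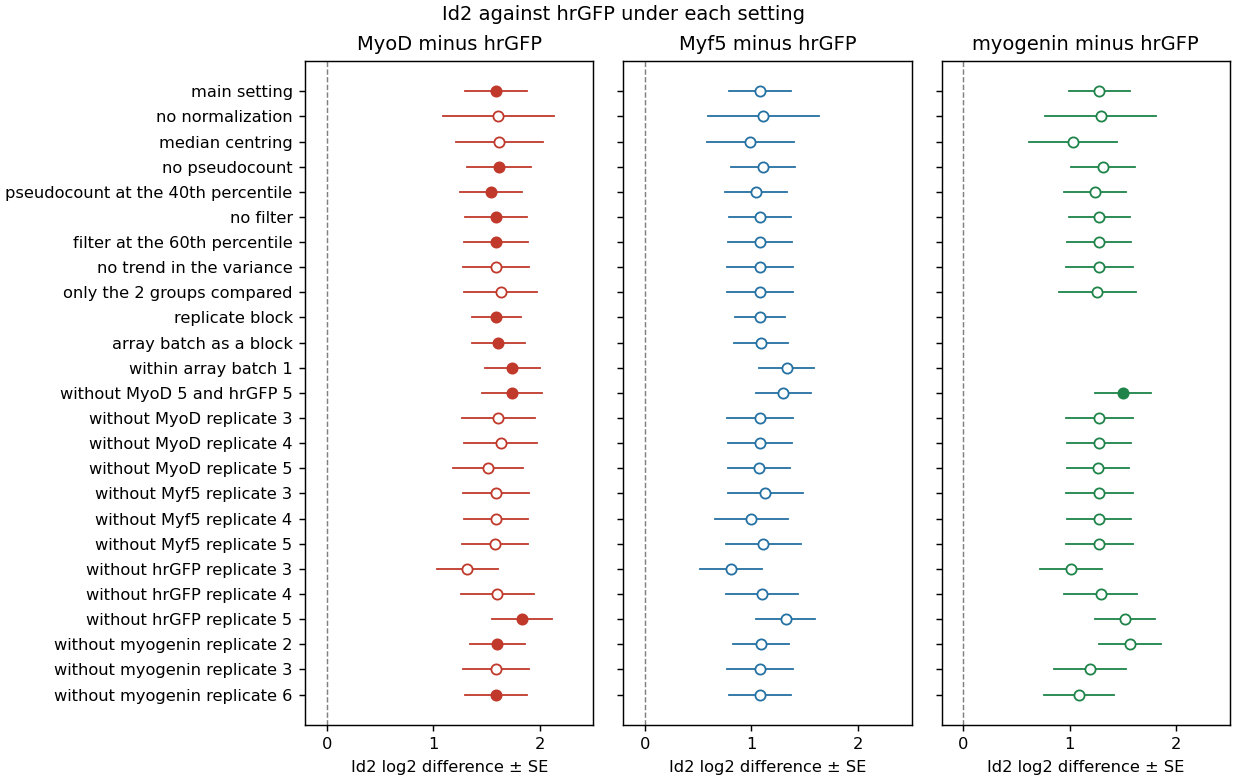
Difference of Id2 from hrGFP (log2, ± SE) with MyoD, Myf5 and myogenin under the main setting and each alternative, filled where the adjusted p was under 0.05; 3 settings that cannot give a value for myogenin are blank. Every point lies above 0, and filled points occur 12 times with MyoD, the main setting included, and 1 time with myogenin.

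The DNA just before the start of the Id2 gene is shown because Id2 was the member called, and that of Id3 because its family member was not. Both are the 250 bases before the start in RefSeq's GRCm38.p6 table, written 5′ to 3′ on the gene's own strand, with each E-box (CANNTG, searched on both strands) in capitals. The Id2 window is chr12:25096093-25096342 on the minus strand and the Id3 window is chr4:136143572-136143821 on the plus strand.
Id2: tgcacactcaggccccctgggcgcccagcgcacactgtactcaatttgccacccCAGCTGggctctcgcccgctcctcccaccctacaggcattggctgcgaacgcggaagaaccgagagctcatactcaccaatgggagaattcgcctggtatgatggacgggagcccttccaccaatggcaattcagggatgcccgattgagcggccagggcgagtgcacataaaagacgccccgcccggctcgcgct
Id3: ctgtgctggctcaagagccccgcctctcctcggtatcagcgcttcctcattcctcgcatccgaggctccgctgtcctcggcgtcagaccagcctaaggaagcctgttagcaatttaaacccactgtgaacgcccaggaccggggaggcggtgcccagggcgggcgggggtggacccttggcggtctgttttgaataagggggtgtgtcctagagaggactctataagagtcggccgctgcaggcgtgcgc
The Id2 window held 1 E-box, CAGCTG, beginning 196 bases before the start. The Id3 window held 0. An E-box of any core was found in 66.2% of 32851 promoter windows of the same length, and CAGCTG, which is one of the forms of CANNTG, in 13.0%. GGCGCC, a GC-rich site known to be bound by the Smads of BMP signalling, began 231 bases before the Id2 start and 148 bases before the Id4 start, without overlap with an E-box, and was in 9.59% of windows. CACNAG, the N-box bound by Hes-type repressors, began 82 bases before the Id4 start and was absent from the Id2 and Id3 windows, with 36.7% of all windows holding it. The table gave windows for 6 of the 9 members. Twist1 had 0 E-boxes, Tcf3 had 1, and of the 3 windows of Tcf12 2 had 1 each, one of them also CAGCTG, 240 bases before its start, while Id1, Tcf4 and Hes1 are only named here.

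Id1 and Id3, Id proteins that BMP signalling is known to induce, did not pass against hrGFP with any factor. The Id1 signals were 422, 536 and 160 on MyoD 3, 4 and 5, and 412, 230 and 106 on hrGFP 3, 4 and 5. With Myf5 they were 632, 383 and 819, and with myogenin 343, 504 and 395. Arrays MyoD 5 and hrGFP 5 were the lowest of all 12, at levels of 7.10 and 6.59, while the other 10 arrays lay between 8.54 and 9.35. Id1 had a level of 8.46 ± 1.20 with MyoD, 9.17 ± 0.03 with Myf5, 8.71 ± 0.11 with myogenin and 7.96 ± 1.18 with hrGFP. The differences from hrGFP were 0.50 ± 0.58 with MyoD (adjusted p = 1.0), 1.21 ± 0.58 with Myf5 (0.973) and 0.75 ± 0.58 with myogenin (0.605).

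Compared within replicate numbers, Id1 was higher in all 3 pairs with MyoD, by 0.39, 0.62 and 0.50, a spread of 0.12 (SD) where the groups' own SDs were 1.20 and 1.18. The pair numbered 5 sets the 2 arrays of high 3' to 5' ratio, both low in Id1, against each other. The spread of 0.12 is not the precision of the fit. With the replicate number as a block, limma gave 0.50 ± 0.40 (unadjusted p = 0.244). With Myf5 the pairs gave 0.61, 0.47 and 2.55, and the last of these sets Myf5 5, with a beta-actin ratio of 1.11, against hrGFP 5, with 37.6. Without MyoD 5 and hrGFP 5 Id1 differed from hrGFP by 0.50 ± 0.18 with MyoD (adjusted p = 0.528), 0.52 ± 0.16 with Myf5 (0.974) and 0.07 ± 0.16 with myogenin (0.905). The difference with Myf5 was thus 0.52 without these arrays and 1.21 with them. Without hrGFP 5 alone the MyoD difference was -0.17. None of these values passed.

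Id3 followed Id1 on the same arrays. Its signals were 287, 418 and 165 on MyoD 3, 4 and 5, 350, 122 and 127 on hrGFP 3, 4 and 5, 390, 213 and 417 with Myf5, and 241, 418 and 270 with myogenin. MyoD 5 and hrGFP 5 again had the lowest levels, 7.14 and 6.81, against 7.79 to 9.04 on the other 10 arrays. Id3 differed from hrGFP by 0.55 ± 0.45 with MyoD (adjusted p = 1.0), 0.71 ± 0.45 with Myf5 (0.973) and 0.61 ± 0.45 with myogenin (0.590). The pairs by replicate number gave 0.06, 1.24 and 0.33 with MyoD and 0.17, 0.58 and 1.37 with Myf5. Without MyoD 5 and hrGFP 5 the differences were 0.64 ± 0.25, 0.28 ± 0.23 and 0.18 ± 0.23 in the order MyoD, Myf5 and myogenin, with adjusted p of 0.603, 0.980 and 0.781. Id2 moved otherwise on these 2 arrays, which had the highest Id2 level of their groups, 9.27 and 8.09. The part of the 3' to 5' ratio in the levels of the Id genes was not tested, and the number of arrays with a high ratio is 2.

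**Figure D3:**
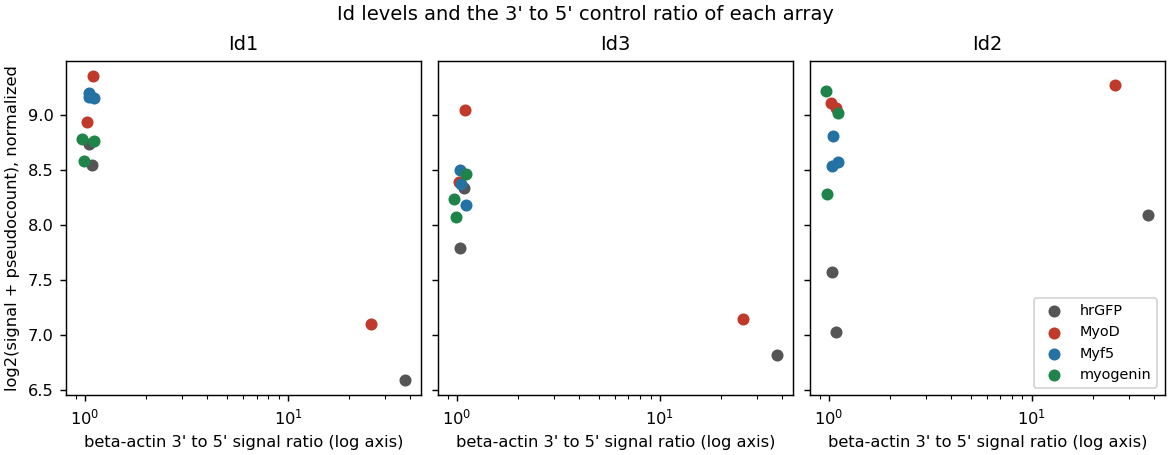
Normalized log2 level of Id1, Id3 and Id2 on each array (vertical axis) against the array's beta-actin 3' to 5' signal ratio (horizontal log axis), coloured by group. The 2 arrays with ratios of 25.7 and 37.6 have the lowest Id1 and Id3 levels of all 12, but not the lowest Id2 levels.

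Id4, an Id protein best known from the nervous system, had signals between 33.6 and 166 over the 12 arrays. Its signals were 96.8, 33.6 and 122 with hrGFP, 90.7, 54.4 and 108 with MyoD, 138, 40.7 and 166 with Myf5 and 88.7, 150 and 68.8 with myogenin. The 4 groups overlapped throughout. The Id4 differences from hrGFP were 0.11 ± 0.33 (MyoD), 0.25 ± 0.33 (Myf5) and 0.20 ± 0.33 (myogenin), and the largest of the 3 upper limits of the 95% intervals was 0.97. They were, without MyoD 5 and hrGFP 5, 0.22 ± 0.36, 0.42 ± 0.33 and 0.36 ± 0.33, and none passed.

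The E proteins, the dimer partners shared by the myogenic factors and the Id proteins, did not pass in any comparison. Tcf12, which codes for HEB, is listed with a probe set whose suffix marks probes shared between transcripts, and other transcripts may add to its signal. Its signals were 333, 180 and 623 with hrGFP, 270, 176 and 524 with MyoD, 250, 150 and 393 with Myf5 and 256, 391 and 268 with myogenin. After normalization all 3 Myf5 arrays (7.85 to 8.09) lay below all 3 hrGFP arrays (8.25 to 8.70). Tcf12 differed from hrGFP by -0.51 ± 0.23 with Myf5 (adjusted p = 0.973), with -0.40, -0.50 and -0.61 in the pairs numbered 3, 4 and 5. With MyoD it differed by -0.22 ± 0.23 and with myogenin by -0.19 ± 0.23, and there the groups overlapped. The Myf5 difference without MyoD 5 and hrGFP 5 was -0.37 ± 0.18 (adjusted p = 0.980), that of MyoD -0.26 ± 0.20 and that of myogenin -0.06 ± 0.18.

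Tcf3, which codes for the E2A proteins E12 and E47, had signals from 34.9 to 68.9. They were 46.5, 38.9 and 68.9 with hrGFP, 34.9, 56.8 and 51.4 with MyoD, 42.1, 39.6 and 59.5 with Myf5 and 60.9, 59.4 and 65.4 with myogenin. The Tcf3 differences from hrGFP were -0.09 ± 0.27 with MyoD, -0.23 ± 0.27 with Myf5 and 0.04 ± 0.27 with myogenin. The 95% intervals ran from -0.69 to 0.50, from -0.83 to 0.36 and from -0.56 to 0.63, so a change of 1 log2 unit in either direction lay outside each of them. The Tcf3 differences without MyoD 5 and hrGFP 5 were -0.01 ± 0.31, -0.14 ± 0.28 and 0.13 ± 0.28.

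Tcf4 here is the E protein E2-2, not the Wnt effector of the same common name. Its signals were 111, 55.8 and 209 with hrGFP, 83.0, 103 and 189 with MyoD, 85.2, 88.0 and 102 with Myf5 and 82.5, 105 and 69.0 with myogenin. The MyoD 5 and hrGFP 5 arrays had the highest levels, 7.31 and 7.36, against 6.22 to 7.09 on the other 10. The Tcf4 differences from hrGFP were 0.08 ± 0.30 for MyoD, -0.34 ± 0.30 for Myf5 and -0.51 ± 0.30 for myogenin (adjusted p = 1.0, 0.973 and 0.520). All 3 myogenin arrays, 6.22 to 6.51, were below the hrGFP arrays, 6.65 to 7.36. Leaving out MyoD 5 and hrGFP 5, the Tcf4 differences were 0.15 ± 0.28 for MyoD, -0.10 ± 0.25 for Myf5 and -0.26 ± 0.25 for myogenin (adjusted p = 0.940, 0.980 and 0.707). Leaving out hrGFP 5 alone gave -0.10 for Myf5 and -0.27 for myogenin, so this array decided much of the size of both.

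Twist1, a bHLH antagonist typical of mesenchymal cells, had signals of 97.5, 48.7 and 158 with hrGFP, 47.4, 67.3 and 160 with MyoD, 74.7, 67.5 and 96.8 with Myf5 and 86.8, 58.3 and 60.1 with myogenin. Here too MyoD 5 and hrGFP 5 had the highest levels, 7.10 and 7.05, against 5.70 to 6.70 on the other arrays. The Twist1 differences from hrGFP were -0.21 ± 0.34, -0.31 ± 0.34 and -0.59 ± 0.34 with MyoD, Myf5 and myogenin (adjusted p = 1.0, 0.973 and 0.515). Each group overlapped with hrGFP. For Twist1 the differences without MyoD 5 and hrGFP 5 were -0.32 ± 0.30, -0.11 ± 0.27 and -0.38 ± 0.27 in the same order (adjusted p = 0.863, 0.980 and 0.599). Without hrGFP 5 alone they were -0.02, -0.12 and -0.39.

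Hes1, the Notch-responsive repressor, had the smallest spread within groups of the 9 members, 0.17 (SD). Its signals were 109, 63.0 and 97.9 with hrGFP, 112, 100 and 92.3 with MyoD, 121, 74.4 and 164 with Myf5 and 130, 178 and 136 with myogenin. All 3 myogenin levels, 7.13 to 7.25, were above those of the other 9 arrays, the highest of which was 7.01 on MyoD 3. Hes1 differed from hrGFP by 0.53 ± 0.21 with myogenin (95% interval 0.08 to 0.99, adjusted p = 0.362), by 0.20 ± 0.21 with Myf5 (0.973) and by 0.17 ± 0.21 with MyoD (1.0). The Hes1 differences without MyoD 5 and hrGFP 5 were 0.44 ± 0.16 for myogenin (adjusted p = 0.270), 0.12 ± 0.16 for Myf5 and 0.26 ± 0.18 for MyoD. The myogenin arrays form an array batch of their own, with another chip lot and hybridization day, so batch and factor cannot be told apart wherever myogenin is compared.

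**Figure D4:**
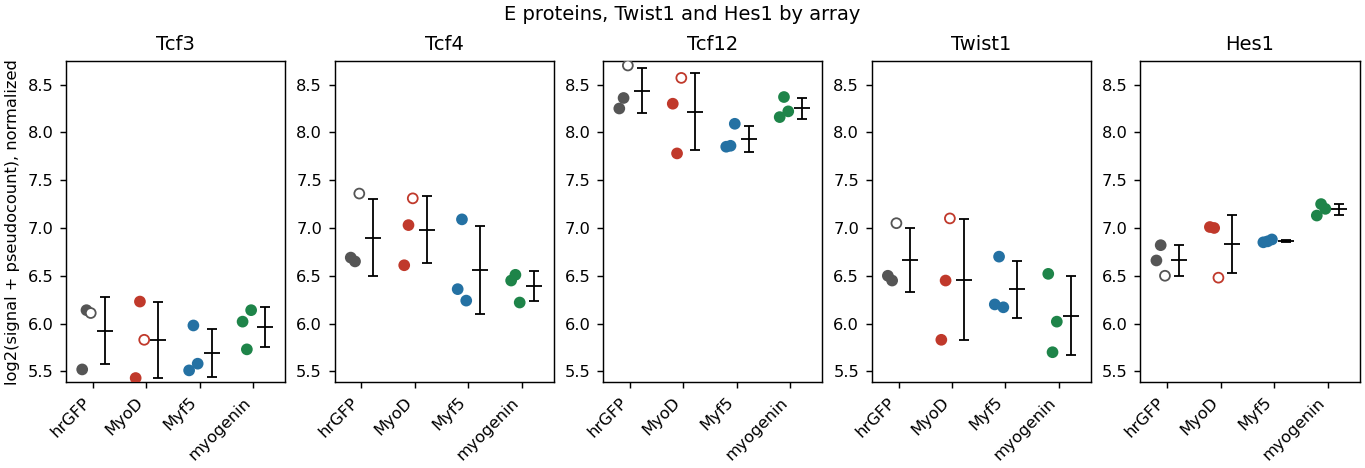
Normalized log2 level of Tcf3, Tcf4, Tcf12, Twist1 and Hes1 on each array by group (one point an array, open for MyoD 5 and hrGFP 5), with the mean and SD of 3 arrays beside the points. The groups overlap except for Tcf12 and Hes1 with Myf5 and for Tcf4 and Hes1 with myogenin, each set against hrGFP.

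Across the 9 members, 6 were higher and 3 lower with MyoD than with hrGFP, 5 and 4 with Myf5, and 6 and 3 with myogenin. Of all probe sets tested, 48.5%, 45.8% and 48.9% were higher. With MyoD the direction of Id1, Id4, Tcf3, Tcf4 and Twist1 changed when single arrays were left out, so these counts are not stable. The medians of the members' differences were 0.11, 0.20 and 0.20, where the medians of all probe sets tested were -0.01, -0.03 and -0.01. With Myf5, limma called 0 of the 9 against 0.0118% of all probe sets, and at an unadjusted p under 0.05 there were 2, Id2 and Tcf12, against 3.01%. With myogenin it called 0 against 0.130%, and at an unadjusted p under 0.05 there were 2, Id2 and Hes1, against 11.5%. The arrays did not overlap with those of hrGFP for 1 member with MyoD, where 5.28% of all probe sets did not, and it was higher, as in 2.88%. They did not overlap for 4 members with Myf5 (8.66%), of which 3 were higher (3.83%), and for 3 with myogenin (18.1%), of which 2 were higher (8.13%). The plot of differences from hrGFP shows the intervals, of which those of Id2 exclude 0 with each factor before adjustment.

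**Figure D5:**
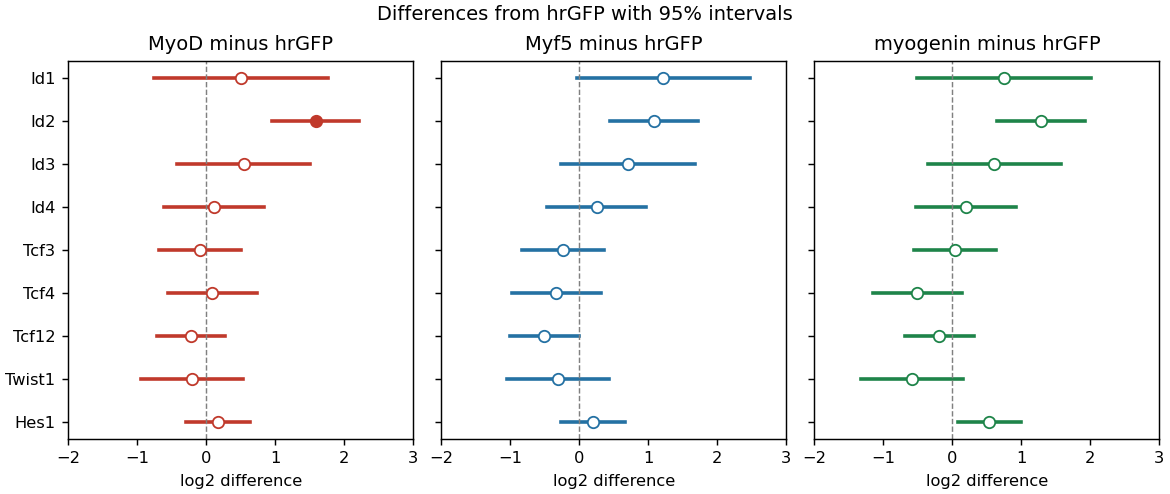
Differences of the 9 genes from hrGFP (log2, horizontal axis) with MyoD, Myf5 and myogenin, with unadjusted 95% intervals from limma; filled where the adjusted p was under 0.05. The Id2 difference with MyoD, 1.59, is the only filled point.

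Set against each other, the 3 factors gave 0 calls among the 9 members by limma. The backgrounds were 0.224% of all probe sets for MyoD against Myf5, 0.412% for MyoD against myogenin and 0.0354% for Myf5 against myogenin. At an unadjusted p under 0.05 the main fit had 0 members in each, against 3.71%, 13.8% and 9.18%. The SE of that fit pools the spread of all 4 groups, MyoD 5 and hrGFP 5 included. Id2 was higher with MyoD than with Myf5 by 0.51 ± 0.29 (adjusted p = 0.937), and the 3 MyoD arrays, 9.06 to 9.27, lay above the 3 Myf5 arrays, 8.53 to 8.81. The Id2 difference was 0.31 ± 0.29 for MyoD against myogenin (adjusted p = 0.627) and -0.20 ± 0.29 for Myf5 against myogenin (0.901). The 95% interval for MyoD against Myf5, -0.13 to 1.14, holds differences of over 1 log2 unit. The data thus do not show that Id2 levels are alike with MyoD and Myf5. By mean level Id2 had the order MyoD, myogenin, Myf5 and hrGFP, of which the levels with myogenin overlapped with those of MyoD and of Myf5. Id1, Id3 and Id4 had the order Myf5, myogenin, MyoD and hrGFP, with no neighbours in it that passed. That shared order was lost without MyoD 5 and hrGFP 5, where Id3 was highest with MyoD, by 0.35 over Myf5 and 0.45 over myogenin, and Id1 was higher with MyoD than with myogenin by 0.43, none of which passed. The Id1 levels with Myf5, 9.15 to 9.20, lay above those with myogenin, 8.58 to 8.78. Their difference was 0.46 ± 0.58 in the main fit and 0.46 ± 0.14 without MyoD 5 and hrGFP 5, which did not pass (adjusted p = 0.133). By limma its unadjusted p was then 0.00802, and that of Hes1 0.0486. With only the Myf5 and myogenin arrays fitted, the Id1 difference was 0.45 ± 0.12 (unadjusted p = 0.00347, adjusted p = 0.0782). Hes1 and Tcf12 had unadjusted p of 0.0409 and 0.0443 in that limma fit. No member passed in either fit. The main fit thus does not show that the members are alike with Myf5 and myogenin. Over the 9 members the arrays did not overlap for 1 in MyoD against Myf5 (9.76% of all probe sets), 2 in MyoD against myogenin (22.4%) and 3 in Myf5 against myogenin (26.4%).

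The genes most like Id2 over the 12 arrays were Spsb2, Snx1 and Inhbb, by the root mean square difference of levels centred on each gene's own mean, at 0.397, 0.400 and 0.411 log2 units, where Id2 itself varied by 0.672. Inhbb, the beta B subunit of activin and inhibin, had signals of 2.03 to 5.05 with hrGFP, 19.1 to 44.2 with MyoD, 9.32 to 19.2 with Myf5 and 16.1 to 33.8 with myogenin. All its hrGFP signals were below the filter of 15, so it was kept through the groups where it is high. The differences from hrGFP with MyoD were 1.06 for Spsb2, 1.08 for Snx1, which codes for a sorting nexin, and 1.88 for Inhbb, and since likeness to Id2 chose these genes they are a description, with no test. The genes nearest to Id1 were Nisch, Uqcrc1 and Gtf2i (0.184 to 0.194), and those nearest to Id3 were Sdhc, Mepce and Bag3 (0.192 to 0.217). On all 6 of these genes MyoD 5 and hrGFP 5 were the 2 lowest of the 12 arrays. Id1 and Id3 differed from each other by 0.354, and Id1 and Id2 by 0.999. Of 6276 genes, Id3 was at rank 126 of likeness to Id1, and Id2 at rank 3804.

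Genes of the pathways around these factors were taken from 5 lists. In the list of BMP and Smad signalling, which is known to drive Id genes, 17 of 28 genes were tested and 0 passed against hrGFP with any factor by limma, with medians of -0.03, -0.08 and 0.00 for MyoD, Myf5 and myogenin. At an unadjusted p under 0.05 there were 0, 1 and 2 of the 17. Of all probe sets, 3.55%, 3.01% and 11.5% had such a p, and limma called 0.412%, 0.0118% and 0.130%. The same shares stand beside the counts of the lists that follow. The largest differences with MyoD were Eng (-0.57), Bmpr2 (0.56) and Smad7 (-0.38). Smad6, an inhibitory Smad, differed by 0.67 ± 0.30 with Myf5 and 0.94 ± 0.30 with myogenin (adjusted p = 0.973 and 0.269). In the list of Notch signalling and its Hes and Hey targets, which surround Hes1, 17 of 30 genes were tested and 0 passed, with medians of 0.04, -0.33 and -0.33 and with 2, 0 and 2 genes at an unadjusted p under 0.05. Dll1, a Notch ligand, had signals of 4.13 to 19.9 with hrGFP, 48.3 to 160 with MyoD, 9.50 to 30.9 with Myf5 and 26.3 to 72.7 with myogenin. Its arrays with MyoD lay above all those with hrGFP, and the difference was 2.64 ± 0.53 without passing (adjusted p = 0.0658). The mean Dll1 level with hrGFP was 3.98, below the 4.42 that a signal at the filter gives. Dll1 was thus kept mainly through the groups where it is high, and its values are a description. Among the alternatives, Dll1 passed only without Myf5 5 (0.0430), without hrGFP 5 (0.0414), within array batch 1 (0.0474) and without normalization (0.0277). It did not pass without MyoD 4 (0.392), hrGFP 3 (0.322), hrGFP 4 (0.276) or MyoD 5 (0.210), or without both MyoD 5 and hrGFP 5 (0.0923). A second Dll1 probe set did not pass the filter, and differed by 0.17 where no filter was set. Hes6, a Hes family member known to promote differentiation, differed by 1.09 ± 0.48 with MyoD (adjusted p = 1.0), and rose by 1.57 ± 0.27 without MyoD 5 and hrGFP 5 (0.0249) and by 1.78 ± 0.29 without MyoD 5 alone (0.0202). Hes6 passed in no other alternative. In the list of other bHLH and E-box antagonists 20 of 31 genes were tested and 0 passed, with medians of -0.08, -0.07 and -0.06 and with 1, 1 and 0 at an unadjusted p under 0.05. The largest differences with MyoD were Tcf15 (0.73), Ascl2 (-0.52) and Arnt (0.50).

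Among myogenic factors and their partners 2 of 11 tested genes rose with MyoD, 0 with Myf5 and 0 with myogenin, by limma. In these comparisons it called 0.412%, 0.0118% and 0.130% of all probe sets. An unadjusted p under 0.05 was found for 3, 0 and 3 of the 11, against 3.55%, 3.01% and 11.5% of all probe sets. The 2 called genes were Myog, with 2.87 ± 0.47 (adjusted p = 0.0167), and Mef2a, with 1.42 ± 0.27 (adjusted p = 0.0467). The count was 1 without MyoD 5 and hrGFP 5, with the replicate number as a block and within array batch 1. It was 0 without MyoD 3, MyoD 4 or hrGFP 3, and 1 without MyoD 5, hrGFP 4, hrGFP 5, any of the Myf5 arrays, myogenin 3 or myogenin 6. Myog, the gene of myogenin itself, had signals of 89.2 to 122 in the cells given myogenin, 165 to 443 with MyoD, 46.1 to 111 with Myf5 and 24.2 to 53.1 with hrGFP. With myogenin it differed from hrGFP by 1.12 ± 0.47 without passing (adjusted p = 0.386), although the arrays did not overlap, and whether its probe set reads the viral transcript was not tested. In the list of muscle genes 9 of 19 rose with MyoD, with a median difference of 1.98, against 1 with Myf5 (median 0.28) and 2 with myogenin (median 0.73). At an unadjusted p under 0.05 there were 16, 5 and 9 of the 19, beside the same shares of all probe sets. The genes called with MyoD included Acta1, the skeletal actin, which rose by 6.19 ± 0.67 (adjusted p = 0.000847). It differed by 2.58 ± 0.67 with Myf5 and 3.75 ± 0.67 with myogenin. With hrGFP, Acta1, Tnnc1, Tnnt3, Chrnb1, Myh3, Chrna1 and Itga7 had mean levels of 3.08 to 4.00. A signal at the filter gives 4.42, so these genes were kept mainly through the groups where they are high, and their rises are a description. Myl1 and Mylpf, at 4.49 and 4.99, were above it. Id2 and the 9 muscle genes were called in the same comparison of the same arrays, and a link between them was not tested. Without MyoD 5 and hrGFP 5 10 muscle genes were called for MyoD, 1 for Myf5 and 5 for myogenin, and without MyoD 5 alone there were 6 for myogenin. Over all probe sets limma then called 42, 2 and 50, and 31 for myogenin without MyoD 5 alone.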

How the data were processed

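The deposited values are intensity signals, 1 per probe set and array, made by the authors in MAS5, according to the submitters' processing notes. Its version and scaling were not given in the sources used here. Trimmed mean signals ran from 41 to 103 over the arrays. The experiment information files hold other information, of which, per the file headers, chip lot and hybridization day gave 3 array batches: arrays 3 and 4 of MyoD, Myf5 and hrGFP, array 5 of those groups, and all 3 arrays with myogenin. Arrays were grouped by title.

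Of 12488 probe sets, 66 array controls were left out. A pseudocount of 6.33 was added, log2 values were quantile-normalized, and 8485 probe sets with a signal above 15 (40th percentile) in at least 3 arrays were kept. limma 3.58.1 under R 4.3.3 (statmod 1.5.0) fitted 1 mean per group, with 8 residual degrees of freedom and a trend in the variance, and was tested on simulated data. For lists the probe set of highest mean stood for a gene. Named genes are the 9 members, called list genes, up to 3 list genes with the largest difference, and the 3 nearest in likeness to Id1, Id2 and Id3. The members, lists, tests and the doubt about MyoD 5 and hrGFP 5 were chosen with earlier results of these data known. Gene names came from the array's table, with 10817 of 10833 probe sets of 1 symbol found in RefSeq (GRCm38.p6).

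Arrays of the same replicate number in MyoD or Myf5 and in hrGFP deviated together from their group means. For numbers 3, 4 and 5 the correlations were 0.496, 0.394 and 0.827 for MyoD with hrGFP and 0.122, 0.332 and 0.107 for Myf5 with hrGFP. With every value over 0.1, the numbers were taken to pair these groups in the pair differences and the replicate block. The main fit had no block. For MyoD with Myf5 the correlations were -0.007, 0.108 and 0.108, and these groups were not taken as paired, although the replicate block fit spans them too. The 0.122 and 0.107 of Myf5 with hrGFP are near that 0.108, so a pairing of Myf5 by number is not settled. Its pair differences and replicate block values depend on it. Some arrays of different numbers deviated together as much, with 0.483 for MyoD 3 with hrGFP 4, 0.366 for MyoD 4 with hrGFP 3 and 0.151 for Myf5 5 with hrGFP 3, so the values mostly set arrays 5 of MyoD and hrGFP apart from 3 and 4.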

Additional observations from a re-analysis of the deposited data

How the results depend on the processing

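The number of members called for MyoD against hrGFP was 1, and 0 without normalization, with median centring, with no trend in the variance or with only the 2 groups compared. When each array was left out in turn, the number was 1 in only 3 of 12 fits and 0 in the others. For myogenin against hrGFP it was 0, and 1 without MyoD 5 and hrGFP 5. In the other 4 comparisons it was 0 under every alternative run. The replicate block kept the count at 1 for MyoD against hrGFP, with an Id2 rise of 1.59 (adjusted p = 0.0291), and at 0 for Myf5 against hrGFP and MyoD against Myf5; it changed no other call of a member. No paired analysis was possible for myogenin because its arrays share only number 3 with the other groups, nor a batch block or a value within batch 1. Of 687 differences of single members under an alternative, 13 turned direction, all of them uncalled. Tcf4 with Myf5 against hrGFP was 0.06 within array batch 1. Leaving out 1 array, the MyoD differences ran from -0.17 to 1.17 for Id1, -0.11 to 0.29 for Id4, -0.29 to 0.11 for Tcf3, -0.07 to 0.31 for Tcf4 and -0.52 to 0.10 for Twist1, and the myogenin differences from -0.03 to 0.39 for Id4 and -0.16 to 0.16 for Tcf3. The cause was not tested. Signals without detection calls and 3 arrays a group limit what can be told of small changes.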
